A study of Mus musculus with 28 samples.

Results

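The cytosolic ribosomal protein genes were the 79 gene symbols of the count table, of 24062 in all, that had the form of a ribosomal protein name (Rpl or Rps with a number and at most a paralogue suffix, Rplp0 to Rplp2, and Rpsa) and a mean raw count of 10 or more over the 28 libraries. They encoded 47 proteins of the large and 32 of the small subunit. The libraries were bulk RNA-seq of the hippocampus of female mice, in 7 groups of 4. In 3xTg-AD mice (3xTg), which model Alzheimer's disease through human mutant APP and tau transgenes under a neuronal Thy1 promoter, the groups were NAVI (the BCL-2 family inhibitor ABT263, navitoclax), DQ (dasatinib with quercetin), VehN and VehD. In wild-type mice of the mixed BL6/129 background (WT) they were NAVI, DQ and Veh. Both treatments are senolytics, agents used to kill senescent cells. VehN and VehD were taken as the vehicles of NAVI and DQ from the last letter of their names, and WT Veh served for both drugs. The labels gave no age. The transgenes and any other difference between the 3xTg and WT lines cannot be told apart in this design.

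Each ribosome is built from ribosomal RNAs and, in the main, a single copy of each ribosomal protein, so a cell has to make these proteins in matched amounts. Their mRNAs are short and abundant, and nearly all begin with a run of pyrimidines, the 5' terminal oligopyrimidine (TOP) tract, through which mTORC1 and LARP1 control their translation. In neurons ribosomes also sit in dendrites and axons, where local protein synthesis serves synaptic plasticity.

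The promoters of 4 members that carry the results below or serve as landmarks are shown first. They are the elongation-stalk protein Rplp0, the S6 kinase substrate Rps6, the 5S particle protein Rpl5 and the large-subunit zinc-finger protein Rpl37. Each sequence runs 5' to 3' from 250 bases before the RefSeq start site (base 251) to 20 bases into the transcript, on the GRCm38.p6 assembly of RefSeq. Capitals mark the pyrimidine-rich letters CTTTCC, the ETS factor type letters CCGGAAG or the GC box letters GGGCGG on either strand.
Rpl37 (chr15:5116363-5116632, plus strand): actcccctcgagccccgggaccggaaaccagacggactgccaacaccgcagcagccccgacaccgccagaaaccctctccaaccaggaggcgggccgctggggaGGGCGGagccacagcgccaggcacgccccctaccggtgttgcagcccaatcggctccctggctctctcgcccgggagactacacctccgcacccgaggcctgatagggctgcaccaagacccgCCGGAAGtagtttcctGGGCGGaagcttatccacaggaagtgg
Rplp0 (chr5:115559217-115559486, plus strand): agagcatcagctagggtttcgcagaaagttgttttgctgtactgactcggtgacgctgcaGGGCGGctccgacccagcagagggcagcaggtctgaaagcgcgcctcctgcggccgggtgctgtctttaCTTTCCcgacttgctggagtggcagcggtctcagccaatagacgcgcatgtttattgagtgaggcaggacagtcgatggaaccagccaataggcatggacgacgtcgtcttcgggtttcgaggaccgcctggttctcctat
Rps6 (chr4:86857348-86857617, minus strand): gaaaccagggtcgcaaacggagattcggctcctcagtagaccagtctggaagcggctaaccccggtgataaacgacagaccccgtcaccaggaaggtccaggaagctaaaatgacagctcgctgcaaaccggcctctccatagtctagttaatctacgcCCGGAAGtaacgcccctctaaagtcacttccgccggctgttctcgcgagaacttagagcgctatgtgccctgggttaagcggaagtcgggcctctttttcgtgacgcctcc
Rpl5 (chr5:107900278-107900547, plus strand): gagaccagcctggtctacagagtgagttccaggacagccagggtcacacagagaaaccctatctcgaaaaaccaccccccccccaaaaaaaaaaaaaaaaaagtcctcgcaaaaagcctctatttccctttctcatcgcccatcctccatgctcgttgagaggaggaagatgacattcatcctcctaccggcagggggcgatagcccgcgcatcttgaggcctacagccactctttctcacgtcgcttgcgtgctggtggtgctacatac
Rpl37 held 1 CCGGAAG and 2 GGGCGG, Rplp0 had 1 CTTTCC and 1 GGGCGG, Rps6 had 1 CCGGAAG, and none of the 3 letter runs was in the Rpl5 window. RefSeq promoters of 300 bases were matched for 58 of the 79 members. CCGGAAG was present in 39.7% of these and in 9.12% of all 27025 promoters in the table. GGGCGG was present in 63.8% of member promoters and 35.9% of all, and CTTTCC in 46.6% of member promoters and 26.3% of all. A match describes the letters of the window, not a bound site. The median GC content was 58.2% in member promoters and 52.7% in all, and its part in these shares was not tested.

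Library totals ran from 32080861 to 54019519 counts, of which the 79 genes held between 0.956% and 1.16%. Markers of hippocampal neurons were present in every library: Prox1 of the dentate gyrus at 36.2 CPM (counts scaled to a common library total, with TMM factors) or more, Fibcd1 of CA1 at 57.3 or more, and Slc17a7 of excitatory neurons at 753 or more. The libraries stood apart in tissue markers and in base composition. In 8 libraries a score of 14 thalamus and habenula genes was at or above 0.5 (log2, relative to the mean of all libraries), and the sum of 14 choroid plexus genes ran from 85.2 to 6111 CPM. The libraries also differed in a GC slope, the change of log2 CPM per 10 points of GC percent over genes outside the family. It ran from -0.34 in VehN replicate 3 to 0.28 in 3xTg NAVI replicate 4.

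Within the family, members were ranked by their level per length of the transcript used. Rpl9 had 494 CPM per kilobase, the ubiquitin fusion gene Rps27a 381 and Rpl4 379, while Rps4l had 5.08 and Rpl30 1.37. Of the 100-base windows of these transcripts, 87.0% for Rpl9, 69.1% for Rps27a and 5.14% for Rpl4 occur in transcripts of other genes. Rpl30, at a mean of 33.4 raw counts, was the member just over the minimum, and Rps27, at 8.68, was the gene just under it. Besides Rps27, 5 symbols of the same form missed the minimum: Rpl26 (no count in any library), Rpl10l (0.107), Rpl39l (5.0), Rpl34 (6.86) and Rpl3l (8.11). Rpl10l and Rpl39l are known as testis paralogues, and Rpl3l as a paralogue of striated muscle. In contrast Rps27, Rpl26, Rpl30 and Rpl34 encode core ribosomal proteins of every cell, and their counts are uncertain. Of the 100-base windows of the Rps27 transcript, 98.4% occur in transcripts of other genes, against 32.5% for Rpl30 and 31.0% for Rpl34. The sources used here do not say how reads with several matches were counted. Its part in these low counts and in the levels of Rpl9 and Rps27a was not tested.

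**Figure D1:**
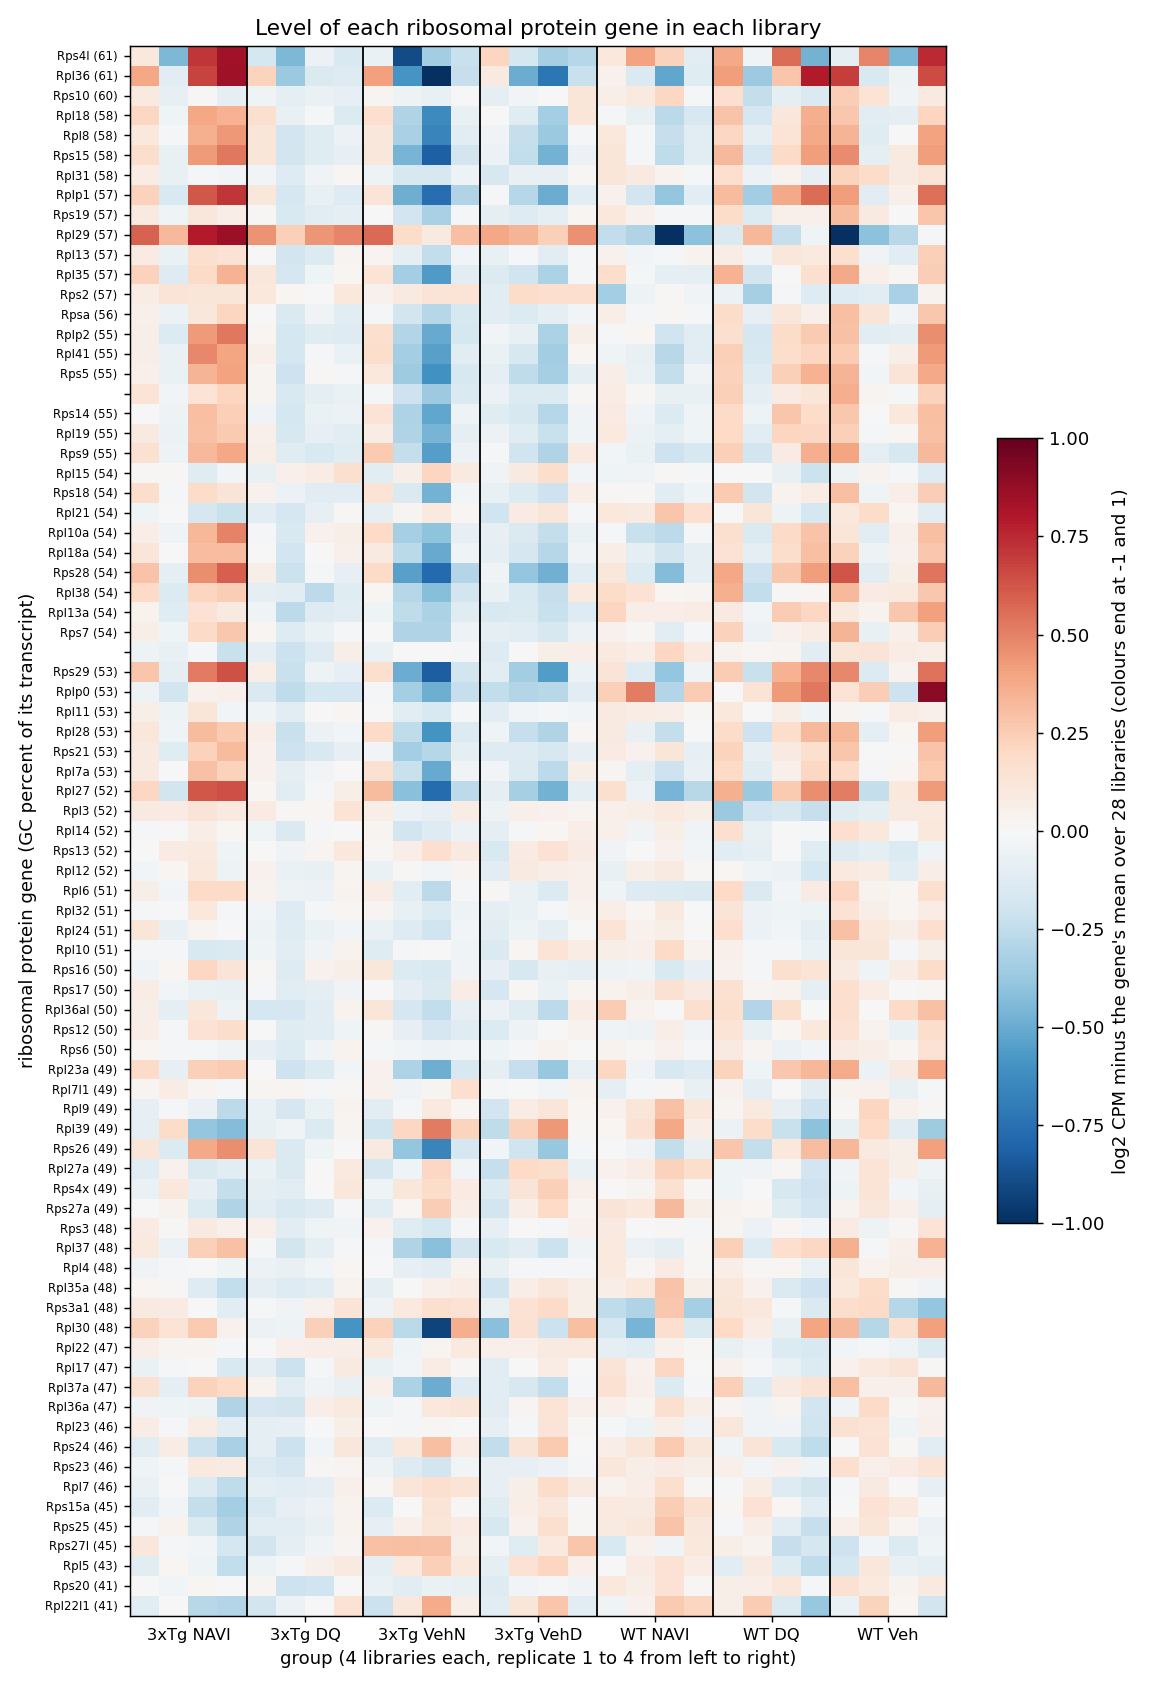
Level of the 79 genes (vertical, ordered by GC percent of the transcript) in the 28 libraries (horizontal, 4 per group), as log2 CPM minus the gene's mean over all libraries. Most genes of a column shift together in some libraries, as in VehD replicate 1 (74 of 79 genes below their mean), 3xTg DQ replicate 2 (73 below) and WT Veh replicate 4 (19 below). In VehN replicate 3, 55 genes were below, and GC-rich genes at the top shift most. In WT Veh replicate 1, 63 genes were above their mean, while Rpl29 was far below its own.

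In vehicle-treated mice, 28 of the 79 genes fell in 3xTg hippocampus against WT and 4 rose. Among all 16369 genes tested, 13.1% were called at an adjusted p under 0.05 (edgeR's quasi-likelihood test, Benjamini-Hochberg over all genes), 7.4% as lower and 5.68% as higher. The 3xTg vehicle level was the mean of VehN and VehD. The median difference of the members was -0.16 on the log2 scale, against 0.01 for all genes, and 63 of the 79 were below 0. Both subunits took part: 15 of 47 large-subunit and 13 of 32 small-subunit genes were lower, with medians of -0.16 each. In bulk tissue, fewer cells of a type and less RNA per cell cannot be told apart. The labels do not state that each library is another animal, so p-values measure the spread between these libraries.

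Rpl13a, a large-subunit protein that in human myeloid cells also leaves the ribosome to silence inflammatory transcripts, had the smallest p. It had 169, 146, 140 and 160 CPM in VehN, 156, 158, 149 and 159 CPM in VehD, and 187, 178, 209 and 231 CPM in WT Veh. Every 3xTg vehicle library was below every WT Veh library. The log2 difference was -0.38 ± 0.07 (SE; edgeR adjusted p = 7.92e-04). Rpl31, which sits beside the exit of the nascent-chain tunnel, had 121, 112, 112 and 121 CPM in VehN, 112, 119, 118 and 126 CPM in VehD, and 146, 142, 133 and 137 CPM in WT Veh. These groups did not overlap either (-0.25 ± 0.05, edgeR adjusted p = 0.00147).

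Rps23, a protein of the decoding centre, had 143, 136, 131 and 146 CPM in VehN, 140, 141, 143 and 147 CPM in VehD, and 167, 154, 157 and 164 CPM in WT Veh. The groups were apart, at -0.19 ± 0.04 (edgeR adjusted p = 0.00537). Rpl24, whose mutation causes the belly spot and tail phenotype in mice, had 92.3, 88.8, 84.5 and 95.3 CPM in VehN, 89.8, 93.7, 91.0 and 97.2 CPM in VehD, and 119, 104, 101 and 109 CPM in WT Veh. It too was lower in every 3xTg vehicle library (-0.24 ± 0.05, edgeR adjusted p = 0.00351). In all 8 members, Rpl4, Rps20 and Rps21 among them, lay lower without overlap, where 2.81% of all genes did.

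In other called members the groups overlapped. Rpsa, the small-subunit protein also known as the laminin receptor, had 226, 201, 187 and 205 CPM in VehN, 212, 208, 213 and 224 CPM in VehD, and 281, 250, 224 and 275 CPM in WT Veh. WT Veh replicate 3 lay within the 3xTg range, and the difference was -0.30 ± 0.06 (edgeR adjusted p = 0.00248). Rpl37 had 102, 84.0, 77.6 and 91.3 CPM in VehN, 92.9, 96.2, 88.9 and 100 CPM in VehD, and 133, 102, 107 and 132 CPM in WT Veh. Its lowest WT library was level with the highest VehN library (-0.37 ± 0.08, edgeR adjusted p = 0.00546).

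The stalk proteins Rplp0, Rplp1 and Rplp2 recruit elongation factors to the ribosome. Rplp0 fell by 0.57 ± 0.14 (log2; edgeR adjusted p = 0.0118), at 75.8, 60.4, 54.6 and 65.2 CPM in VehN, 64.6, 62.4, 63.3 and 71.2 CPM in VehD, and 84.0, 91.0, 66.3 and 143 CPM in WT Veh. WT Veh replicate 4 stood far above the others and replicate 3 within the 3xTg range. Rplp1 also fell (-0.52, edgeR adjusted p = 0.0400), and Rplp2 was at -0.30 without passing. Over all treatments Rplp0 ran from 54.6 to 79.4 CPM in the 16 3xTg libraries and from 62.4 to 143 CPM in the 12 WT libraries, 9 of them above every 3xTg library. No member separated all 16 3xTg from all 12 WT libraries in either direction, as 0.36% of all genes did upwards and 0.232% downwards. Rps19, mutated in human Diamond-Blackfan anaemia, was lower at -0.28 (edgeR adjusted p = 0.00747) and the short peptide gene Rpl41 at -0.35 (edgeR adjusted p = 0.0460). Rps6 was at -0.10, Rpl11 at -0.09 and Rpl5, which with Rpl11 binds Mdm2, at 0.14, none of them called.

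The 4 members that rose were Rps2, Rps13, Rps27l and Rpl22. Rps2, at the mRNA entry side of the small subunit, had 102, 105, 108 and 108 CPM in VehN, 91.2, 112, 111 and 111 CPM in VehD, and 90.3, 91.6, 79.02 and 101 CPM in WT Veh. All but VehD replicate 1 lay above every WT Veh library (0.23 ± 0.07, edgeR adjusted p = 0.0311). Rps27l, a paralogue of Rps27 and a p53 target, had 14.4, 14.5, 14.4 and 12.3 CPM in VehN, 11.5, 10.8, 12.6 and 14.3 CPM in VehD, and 10.2, 11.5, 10.7 and 11.4 CPM in WT Veh. Its higher level came mainly from VehN, with VehD overlapping WT Veh (0.25 ± 0.08, edgeR adjusted p = 0.0407). Rps13 was at 0.17 (edgeR adjusted p = 0.0251) and Rpl22 at 0.11 (edgeR adjusted p = 0.0445). Of these calls, that of Rps2 was kept after removal of the GC trend and those of Rps13, Rps27l and Rpl22 were lost.

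**Figure D2:**
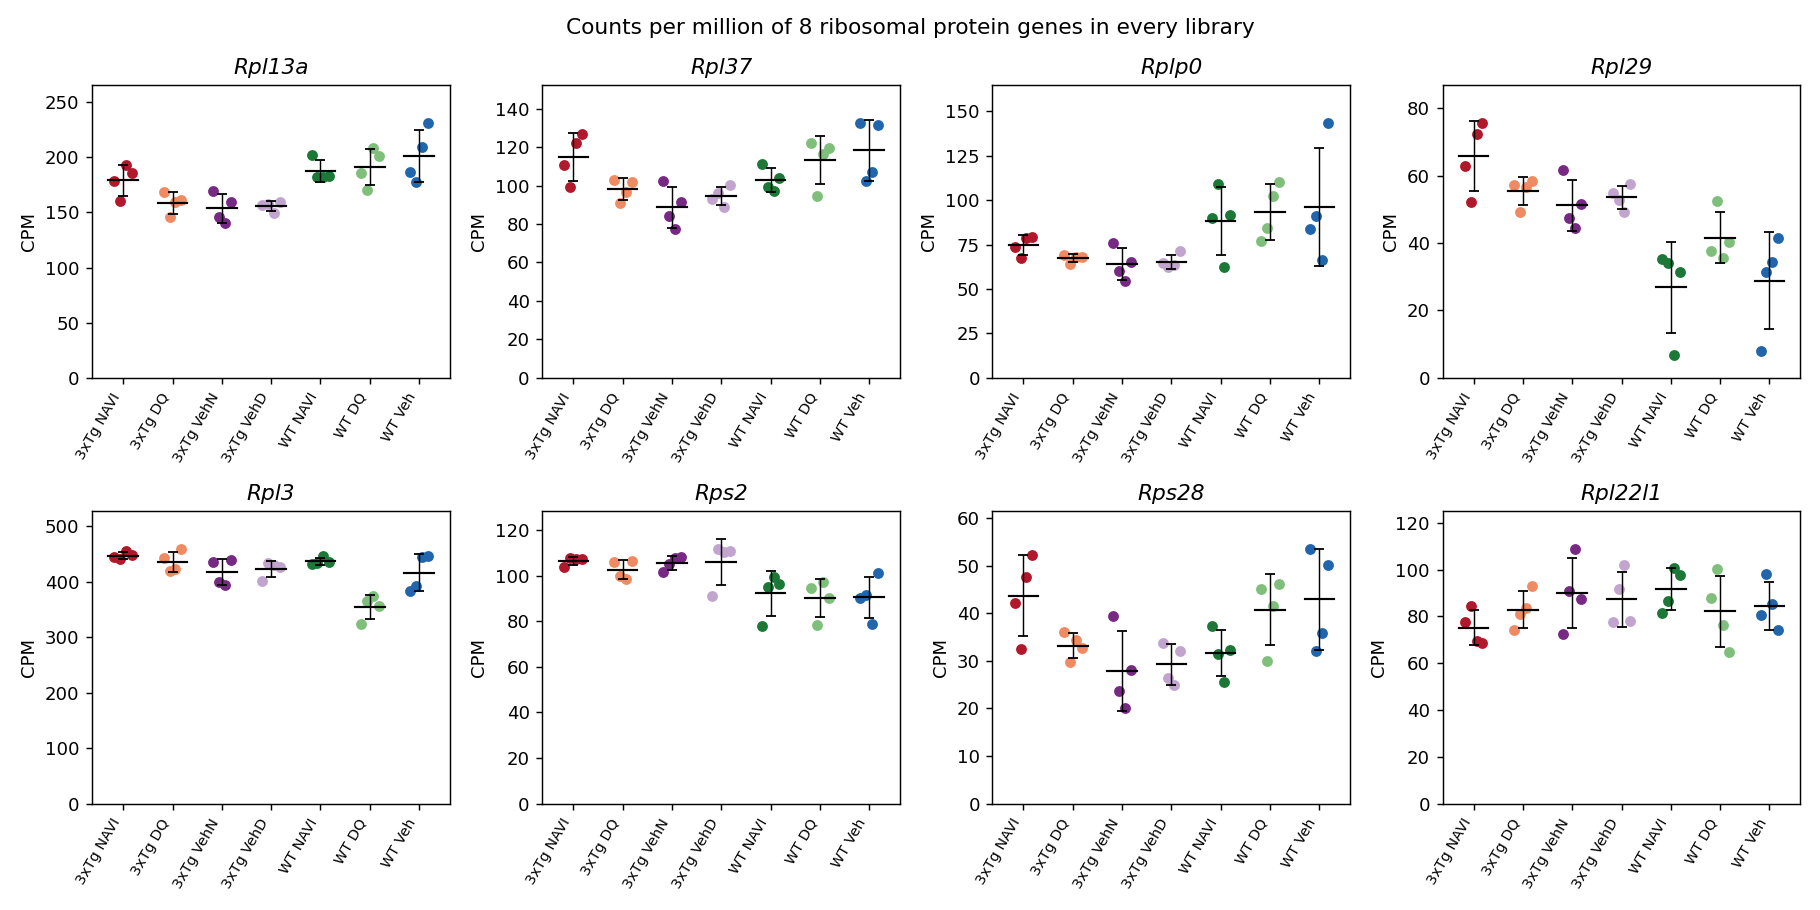
CPM of 8 members (vertical, from 0) in every library by group (horizontal). Points are libraries, and lines with bars are the mean and SD of 4. Rpl13a is lower in 3xTg vehicles, Rplp0 is tight in 3xTg and spread in WT, Rpl29 is higher in 3xTg with 1 very low library each in WT NAVI (6.76 CPM) and WT Veh (8.07 CPM), and Rpl3 is lowest in WT DQ.

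Paralogues are given beside their partners, with no test of the difference within a pair. Rpl22l1, which Rpl22 is known to repress in mouse cells, was at 0.07 in the vehicle comparison beside Rpl22 at 0.11. Rpl36al fell (-0.25, edgeR adjusted p = 0.0433), while Rpl36a, encoded on chromosome X, was at -0.02. Rpl7l1, a relative of Rpl7, was at 0.03 and Rpl7 at 0.09. Rps4l had a wide spread at a low level (2.06 to 6.87 CPM over all libraries) and was at -0.48 without passing, while Rps4x was at 0.08. Rpl39 was at 0.24 and Rpl10 at -0.09, neither called.

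The vehicle differences varied with base composition. Of the 40 members at or above the median GC content of 51.8%, 36 were negative and 19 were called lower, with a median of -0.28. Of the 39 below it, 27 were negative and 9 were called lower, with a median of -0.07. Across the 79 genes, which share libraries and are not independent, the Spearman rank correlation between GC percent and the difference was -0.52. The GC slope averaged -0.12 in VehN, -0.10 in VehD and 0.09 in WT Veh.

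After removal of each library's GC trend, as fitted on genes outside the family, 36 members were lower and 2 higher, where 8.74% of all genes were called. Of the 32 calls made on the counts as deposited, 28 were also made this way in the same direction, and the rank correlation was -0.28. The trend used the GC percent of each gene's longest transcript, and the correlations use that of each member's principal transcript. Rpl13a stayed at -0.30 (edgeR adjusted p = 7.04e-04), Rpl31 was at -0.34 (edgeR adjusted p = 3.62e-04) and Rplp0 at -0.51 (edgeR adjusted p = 0.0110). Without the 6 libraries whose GC slope passed 0.2 in either direction, a choice made after seeing the data, 5 members were lower and none higher (4.26% of all genes were called). Single libraries mattered as well. Without WT Veh replicate 1, 7 members were lower (5.87% of all genes called), and without WT Veh replicate 4, 6 were lower and 2 higher (5.3%). Without VehD replicate 3, 19 were lower (8.38%), and without VehN replicate 3, 20 were lower (8.8%). With VehD alone as the 3xTg vehicle 5 members were lower (3.81% of all genes called), and with VehN alone 22 were lower and 2 higher (10.5%).

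Markers of other cells differed beside these counts. The 10 microglia markers, none at 0, summed to between 654 and 865 CPM in the 3xTg vehicle libraries and between 557 and 643 CPM in WT Veh. The 10 oligodendrocyte markers, none at 0, ran from 4680 to 8567 CPM in the 3xTg vehicles and from 4202 to 5033 CPM in WT Veh. The 14 thalamus and habenula markers, none at 0, ran from 241 to 1004 CPM in the 3xTg vehicles and from 245 to 415 CPM in WT Veh. The 10 astrocyte markers summed to between 6548 and 8112 CPM in the 3xTg vehicles and 6283 to 6876 CPM in WT Veh, with overlap. Their score (log2, centred over the 28 libraries) did not overlap. It was between -0.02 and 0.19 in the 3xTg vehicles and between -0.13 and -0.07 in WT Veh. The score of the microglia markers overlapped, at -0.16 to 0.31 in the 3xTg vehicles and -0.25 to 0.03 in WT Veh. The 10 excitatory neuron markers summed to between 5722 and 6739 CPM in the 3xTg vehicles and between 6243 and 7298 CPM in WT Veh. The part of these cells in the result was not tested. Without the 8 libraries of high thalamus score, also chosen after seeing the data, 41 members were lower and 5 higher, where 30.5% of all genes were called.

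Companion genes of the ribosome were read against the same 13.1% of all genes. Fau, which fuses a ubiquitin-like part to a ribosomal protein, was at -0.33 without passing. Of 19 translation factors with TOP mRNAs, 2 fell, Eif3k (-0.30) and Eef1g (-0.12), and their median was 0.01. Of 39 ribosome biogenesis genes, 4 fell, among them the box H/ACA protein Nhp2 (-0.35), and 2 rose, the kinase Riok2 (0.23) and Taf1b (0.28). None of 16 genes of mTORC1 and its control of TOP mRNAs was called. Of 77 mitochondrial ribosomal protein genes 7 fell, led by Mrps12 (-0.77, edgeR adjusted p = 5.70e-04), and 2 rose, with a median of -0.04.

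**Figure D3:**
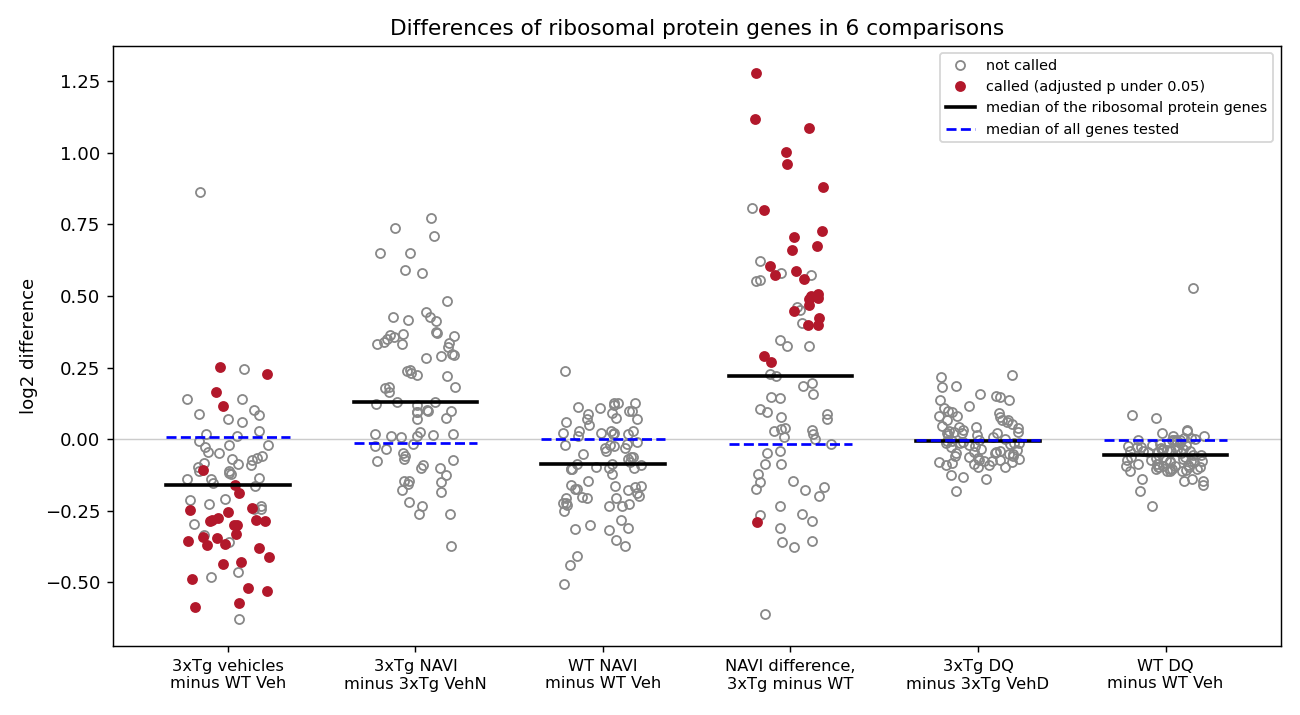
Log2 differences (vertical) of the 79 genes in 6 comparisons (horizontal). Filled points were called at an adjusted p under 0.05. The median of the 79 genes (line) is at -0.16 between genotypes with vehicle, 0.13 with NAVI in 3xTg and -0.09 with NAVI in WT, and within 0.06 of 0 with DQ, where the median of all genes (dashed) is near 0 throughout.

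NAVI was set against VehN in 3xTg mice and against Veh in WT mice. In 3xTg no member was called, nor was any other gene (0% of 16369), by edgeR, although 44 members and 4759 of all genes had an unadjusted p under 0.05. DESeq2 called 30 members higher and 2 lower, among 2000 genes in all. The median was 0.13, with 56 of 79 positive, against -0.01 for all genes. Among the smallest p were those of Rpl37 (0.37 ± 0.10) and Rplp1 (0.71 ± 0.20), each with an edgeR adjusted p of 0.0595. The call changed with the samples used: against the mean of both 3xTg vehicles 24 members were higher and 1 lower (9.41% of all genes called). Rpl3 and Rps20 lay higher without overlap in 3xTg NAVI, where 2.83% of all genes did. Leaving out VehN replicate 1 gave 38 higher and 4 lower, with 21.7% of all genes called, and leaving out 3xTg NAVI replicate 2 gave 31 and 3, with 16.9%. Leaving out 3xTg NAVI replicate 1 gave 2 higher, with 4.61%.

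Markers of other cells differed here too. The 10 excitatory neuron markers, none at 0, summed to between 6555 and 7952 CPM in 3xTg NAVI and between 5722 and 6739 CPM in VehN. The 14 choroid plexus markers were at 2442 CPM or more in all 4 VehN libraries, the 1 group of which this held, and at 101 CPM in 3xTg NAVI replicate 2 and 155 CPM in replicate 4. In WT the excitatory neuron markers ran from 6352 to 8075 CPM with NAVI and from 6243 to 7298 CPM with Veh. The part of these cells in the NAVI results was not tested.

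In WT no member was called with NAVI (0% of all genes), and 10 members and 1267 of all genes had an unadjusted p under 0.05. DESeq2 called none of the members either. The median was -0.09 with 25 of 79 positive. The smallest p was that of Rpl6 (-0.22 ± 0.07, edgeR adjusted p = 0.614), followed by Rps16 at -0.16 and Rpl41 at -0.31.

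The difference between these NAVI effects, 3xTg minus WT, was called for 27 members, 26 of them higher and 1 lower, where 8.13% of all genes were called, 5.89% higher and 2.24% lower. The interaction uses VehN and WT Veh, as does the vehicle comparison above, so the values below are not independent of it. Rps28, near the mRNA exit of the small subunit, had 42.2, 32.6, 47.7 and 52.3 CPM in 3xTg NAVI and 39.4, 23.8, 20.2 and 28.2 CPM in VehN. In WT it had 37.4, 31.4, 25.6 and 32.2 CPM with NAVI and 53.5, 32.0, 35.9 and 50.2 CPM with Veh. 3xTg NAVI replicates 1, 3 and 4 were above every VehN library, and WT NAVI replicates 2 and 3 were below every WT Veh library. The difference of the differences was 1.09 ± 0.27 (edgeR adjusted p = 0.0427).

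The stalk gene Rplp1 had 101, 77.8, 133 and 142 CPM in 3xTg NAVI and 94.4, 61.6, 51.0 and 70.2 CPM in VehN. In WT it had 88.9, 75.7, 65.9 and 79.7 CPM with NAVI and 115, 80.2, 89.3 and 126 CPM with Veh. 3xTg NAVI replicates 3 and 4 were the 2 highest of these 16 libraries (1.12 ± 0.28, edgeR adjusted p = 0.0427). Rpl37, Rpsa and Rps26 were at 0.57, 0.40 and 0.80 with the same adjusted p. Rpl7 was the member called lower. It had 284, 298, 270 and 249 CPM in 3xTg NAVI and 300, 323, 333 and 327 CPM in VehN, without overlap (2.6% of all genes lay lower in this way), and 305, 311, 333 and 300 CPM in WT NAVI and 293, 317, 298 and 282 CPM in WT Veh (-0.29 ± 0.09, edgeR adjusted p = 0.04996).

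**Figure D4:**
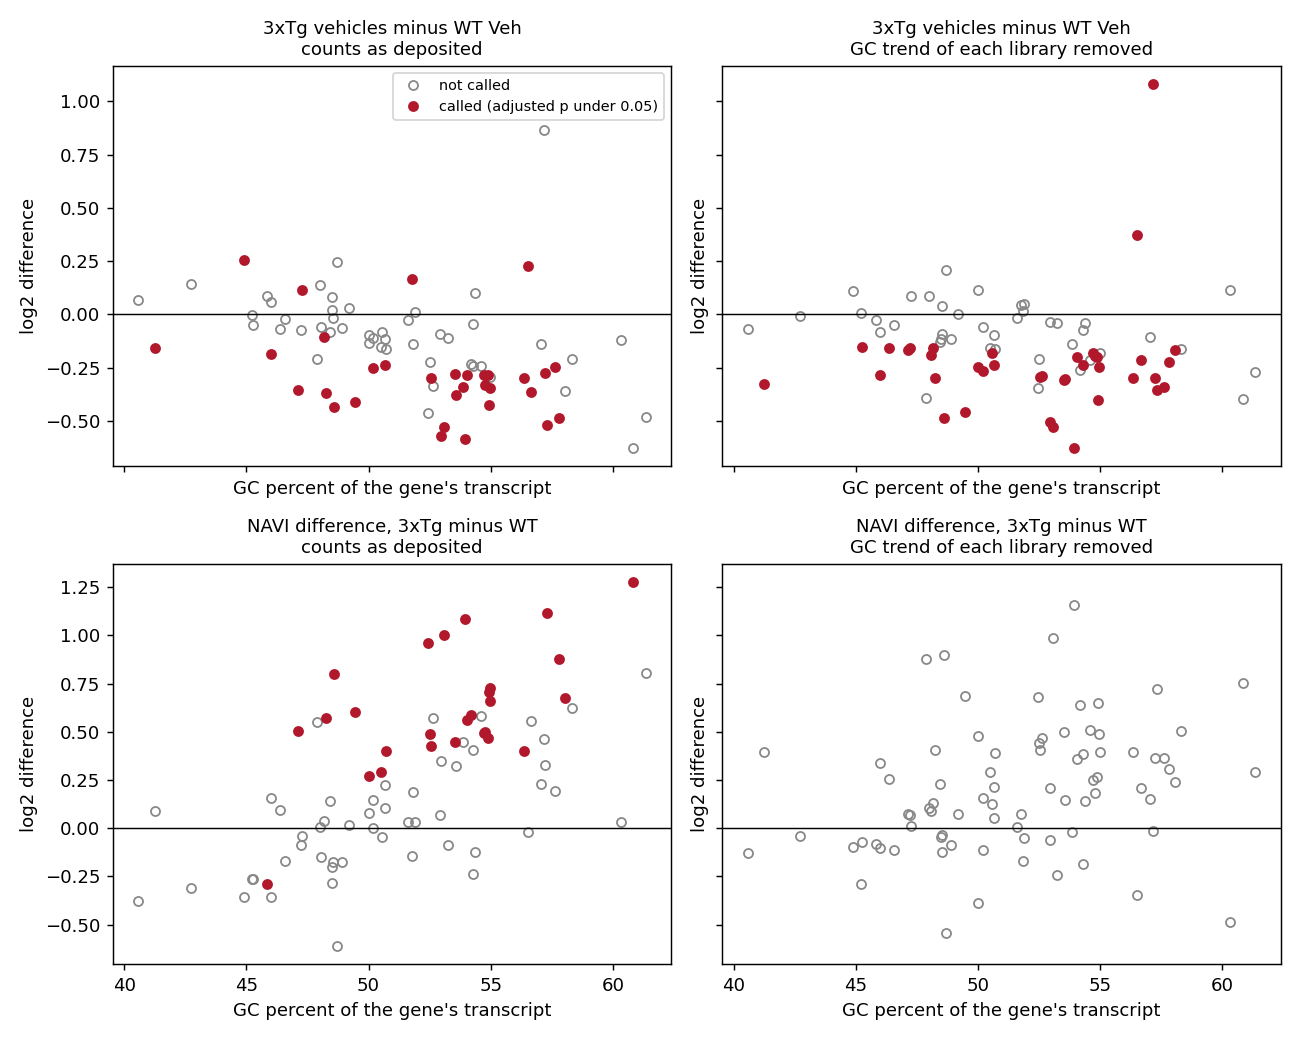
Log2 difference (vertical) against GC percent of the transcript (horizontal) for the 79 genes, between genotypes with vehicle (top) and for the NAVI effect in 3xTg minus that in WT (bottom), from counts as deposited (left) and with each library's GC trend removed (right). Filled points were called. The 36 lower and 2 higher calls at the top right stand beside none at the bottom right.

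Here too the members were ordered by GC content. Of the 40 members of higher GC content 36 were positive and 19 called higher, with a median of 0.48, and of the 39 others 21 were positive, 7 called higher and 1 called lower, with a median of 0.01. The rank correlation with GC percent was 0.62 over the 79 genes. The GC slope averaged 0.14 in 3xTg NAVI, -0.12 in VehN, -0.06 in WT NAVI and 0.09 in WT Veh. With the GC trend removed no member was called, nor was any other gene (0%; 2341 of all genes and 44 members had an unadjusted p under 0.05), at a member median of 0.18 and a rank correlation of 0.35. With a replicate block added to this trend removal 20 members were called, all higher, where 0.935% of all genes were called. With the GC trend removed and no block, Rps28 was at 1.16 (edgeR adjusted p = 0.108) and Rplp1 at 0.72 (edgeR adjusted p = 0.108). Rpl7 was at -0.08 in that fit (edgeR adjusted p = 0.595).

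No member was called in the interaction without 3xTg NAVI replicate 3 or 4, VehN replicate 2 or 3, WT NAVI replicate 2, 3 or 4, or WT Veh replicate 1 or 4, and at most 1 gene of all was called in each of these fits. Without VehN replicate 1 there were 39 higher and 5 lower calls, with 25.6% of all genes called, and without 3xTg NAVI replicate 2 there were 37 and 6, with 21.9%. Without the 6 libraries of steep GC slope no member and no other gene was called (0%), and the median was 0.13. Without the 8 libraries of high thalamus score 34 were higher and 9 lower, with 29.9%.

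**Figure D5:**
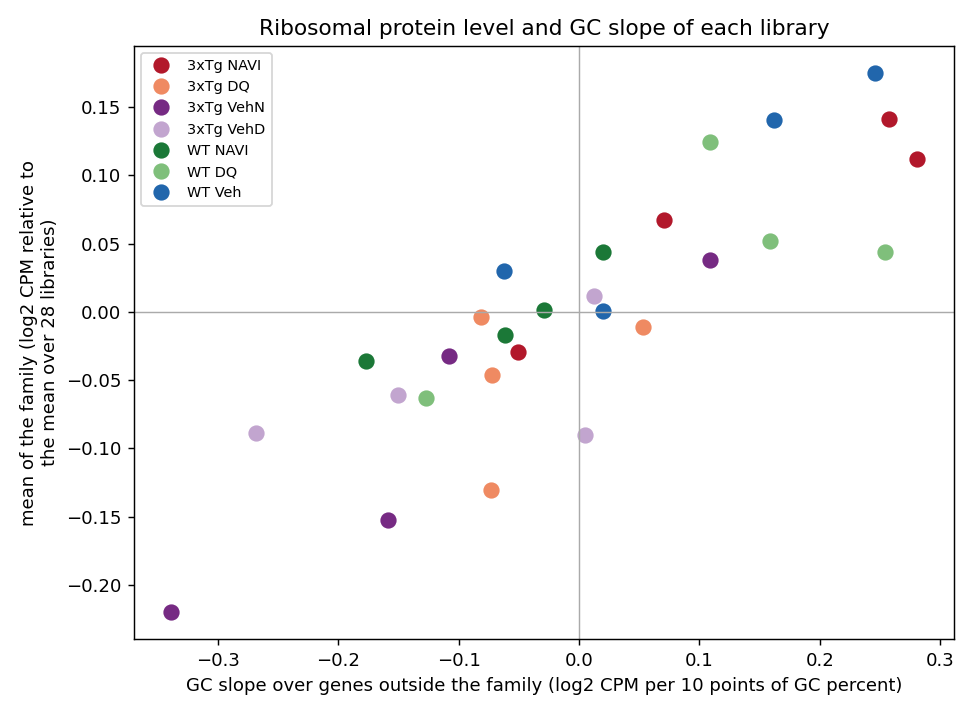
Mean level of the 79 genes in each library (vertical, log2 CPM relative to the mean over 28 libraries) against the library's GC slope over other genes (horizontal, log2 CPM per 10 points of GC percent). Points are libraries coloured by group. The 7 libraries of lowest slope all lie below 0 and the 7 of highest slope all above 0.

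Library by library, the mean level of the family moved with the GC slope. In the 7 libraries of lowest slope the mean was between -0.22 and -0.03, and in the 7 of highest slope it was between 0.04 and 0.18. Of the 14 libraries with a positive slope 12 had a mean above 0, and of the 14 with a negative slope 12 were below 0. All 7 groups held libraries of both signs of slope. VehN spread most, with means from -0.22 to 0.04, and 3xTg DQ ran from -0.13 to -0.0036.

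With NAVI in both genotypes, 3xTg against WT, 1 member rose and 4 fell, where 5.98% of all genes were called, 3.29% higher and 2.69% lower. Among those that fell were Rps15a (-0.32 ± 0.07, edgeR adjusted p = 0.00804), Rpl21 (-0.27) and Rps25 (-0.25). Rps15a had 163, 172, 149 and 139 CPM in 3xTg NAVI and 188, 187, 208 and 194 CPM in WT NAVI, without overlap. The share of all genes apart in this way was not counted. The GC content of the transcripts used was 45.3% for Rps15a and 45.2% for Rps25, and 54.3% for Rpl21. The Rps15a transcript used has 5130 bases, where the median of the members is 775. The counts moved with single libraries, to 6 higher and 9 lower without 3xTg NAVI replicate 2, where 11.6% of all genes were called. They were 2 lower without 3xTg NAVI replicate 3 (2.27% of all genes called), 1 lower without 3xTg NAVI replicate 4 (3.59%) or WT NAVI replicate 3 (2.71%) or 4 (3.51%), and 1 higher and 2 lower without WT NAVI replicate 1 (4.62%).

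The member that rose was Rpl29, a large-subunit protein without which mice are viable but small. It had 62.9, 52.3, 72.3 and 75.5 CPM in 3xTg NAVI and 35.2, 33.9, 6.76 and 31.4 CPM in WT NAVI (1.29 ± 0.35, edgeR adjusted p = 0.0293). In vehicles it had 61.7, 47.5, 44.3 and 51.4 CPM in VehN, 54.7, 52.9, 49.3 and 57.4 CPM in VehD, and 8.07, 31.4, 34.4 and 41.4 CPM in WT Veh. With DQ it had 57.1, 49.2, 56.7 and 58.5 CPM in 3xTg and 37.7, 52.4, 35.6 and 40.4 CPM in WT. Each of the 16 3xTg libraries was above 11 of the 12 WT libraries, WT DQ replicate 2 being the exception. Without WT NAVI replicate 3 the NAVI difference was 0.97 (edgeR adjusted p = 0.0664), and the call was also lost without WT NAVI replicate 4 or 3xTg NAVI replicate 3 or 4. The vehicle difference was 0.86 (edgeR adjusted p = 0.0639), or 1.08 (edgeR adjusted p = 0.0290) with the GC trend removed. Removal of the GC trend lost the NAVI call, at 1.03 (edgeR adjusted p = 0.0702). It was the 1 member to lie higher without overlap in 3xTg vehicles, where 2.9% of all genes did. Its SD of log2 CPM over the 28 libraries, 0.79, was the largest of the members. Rpl29 lies on chromosome 9 (106429454 to 106431568, plus strand), and 50.1% of its transcript's 100-base windows occur in transcripts of other genes.

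DQ left no member called in either genotype by edgeR. In 3xTg, where 0% of all genes were called, 0 members and 299 of all genes had an unadjusted p under 0.05, the median was -0.01, and every member was within 0.23 of 0. In WT 1 gene of all was called (0.00611%), no member, and 5 members and 554 of all genes had an unadjusted p under 0.05. The WT median was -0.06 and 68 of 79 were negative. DESeq2 called no member in either. The difference between the DQ effects was called for no member by edgeR or DESeq2 (0% of all genes by edgeR), with 2 members and 467 of all genes at an unadjusted p under 0.05 and a median of 0.06.

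Rpl3, on chromosome 15, had the smallest p in WT with DQ. It had 323, 365, 374 and 356 CPM in WT DQ and 383, 392, 445 and 446 CPM in WT Veh, without overlap (Rps23 also lay lower in this way, as did 0.929% of all genes; no member lay higher in this way, and 0.556% of all genes did), and the difference of -0.23 ± 0.05 did not pass over all genes (edgeR adjusted p = 0.605). In 3xTg it had 443, 420, 422 and 459 CPM with DQ and 402, 434, 430 and 427 CPM with VehD, at 0.04. With DQ in both genotypes, 3xTg against WT, it was the 1 member called (3.05% of all genes were, 1.68% as higher), at 0.30 ± 0.05 (edgeR adjusted p = 0.00232). All 4 WT DQ libraries lay below each of the other 24 libraries, and the share of all genes that did so was not counted. In this comparison Rpl3, Rpl22 and Rps2 lay higher in 3xTg without overlap, where 5.71% of all genes did, and Rpl13a and Rplp0 lower, where 5.09% did. Without the 8 libraries of high thalamus score the difference was 0.24 (edgeR adjusted p = 0.0909). Of its 100-base windows 79.4% occur in transcripts of other genes.

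Between the vehicles of the 3xTg mice, VehD minus VehN, no member was called by edgeR or DESeq2 (0% of all genes by edgeR), and 0 members and 807 of all genes had an unadjusted p under 0.05. The median was 0.03, and Rps27l, at -0.17 ± 0.09, had the smallest p (edgeR adjusted p = 0.9999).

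The steadiest members over the 28 libraries were Rps6, Rpl4 and Rpl7l1. Their SDs of log2 CPM were 0.056, 0.058 and 0.058. Rps6, which S6 kinase phosphorylates downstream of mTORC1, stayed between 137 and 167 CPM. After Rpl29 the widest were Rpl36 at 0.49 and Rps4l at 0.42, both at low counts and, at 60.8% and 61.3% GC, the most GC-rich members. Rpl36 had 4.57 CPM in VehN replicate 3 and 18.2 CPM in 3xTg NAVI replicate 4, the libraries at the ends of the GC slope.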

How the data were processed

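Stranded mRNA libraries of hippocampal RNA were read in pairs on an Illumina instrument, per the labels' protocols. The authors deposited raw counts per gene symbol, 1 column per library, neither normalized nor pooled. The submitters' processing notes name STAR, Subread, featureCounts and mm10. The sources used here give neither annotation nor strand setting, nor how reads with several matches were treated, so counts of genes with close copies or overlapping neighbours are uncertain. 0 columns were left unused.

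The members, the gene lists and the tests were chosen with earlier results of these data known. Mitochondrial ribosomal proteins, taken by symbol pattern, were added once the files were at hand. Groups were taken from the labels, and all 28 libraries entered 1 fit of edgeR 4.0.16 (R 4.3.3): TMM, filterByExpr by group (16369 genes, all 79 members among them), 1 coefficient per group, two-sided quasi-likelihood tests, Benjamini-Hochberg over all genes, calls at an adjusted p under 0.05. The SE is the absolute log2 difference over the square root of F. The fit was tested on counts simulated gene by gene. These held no GC slopes, tissue differences or links between genes, so that test does not cover such conditions. Lengths, GC content and shared windows of the members come from GENCODE transcripts of GRCm38, by the principal, best supported, shortest transcript. The GC slope and GC trend instead use the longest GENCODE transcript of each gene. The members' median GC content was 51.8% by the principal and 50.7% by the longest transcript. Rank correlations after trend removal thus use another GC measure than the trend. The GC trend is a spline of log2 CPM (prior count 2) on GC percent per library, fitted on genes outside the family and used as an offset.

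Named members were a fixed set of landmarks and paralogues, the 6 smallest p-values per direction of each comparison (3 where none was called), the extremes of level and spread, and the genes next to the count minimum. Rps20, Rps21, Nhp2 and the level of Rps27a per length were singled out after their values were seen. Some named genes are not reported here. Alternatives were RLE size factors, DESeq2 1.42.0, no filter, other vehicles, other library sets and trend removal.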

Additional observations from a re-analysis of the deposited data

Results flagged for a closer look

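In 294 groups of 4 libraries (42 named members in 7 groups), 13 had a library whose gap to the nearest other exceeded Dixon's critical value for 4 samples as a share of the group's range, and chance alone gives about 1 in 20. In WT NAVI, replicate 3 was high for Rpl10 (248 CPM, the others between 223 and 227) and Rps25 (241 CPM, the others between 211 and 215) and low for Rpl29 (6.76 CPM, the others between 31.4 and 35.2). WT NAVI replicate 1 was high for Rpl13a (202 CPM, the others between 182 and 183) and Rpl6 (130 CPM, the others between 121 and 122). In 3xTg VehD, replicate 1 was low for Rpl11 (112 CPM, the others between 118 and 119) and Rps2 (91.2 CPM, the others between 111 and 112). In 3xTg NAVI, Rpl36a was low in replicate 4 (69.7 CPM, the others between 82.6 and 83.7) and Rps2 in replicate 1 (104 CPM, the others between 107 and 108). The 4 other cases were Rpl7 in 3xTg DQ replicate 4 (309 CPM, the others between 277 and 279), Rpl9 in WT Veh replicate 2 (422 CPM, the others between 365 and 374), Rps13 in WT DQ replicate 3 (61.9 CPM, the others between 56.8 and 57.6) and Rps27l in 3xTg VehN replicate 4 (12.3 CPM, the others between 14.4 and 14.5).

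In edgeR's interaction test the NAVI effect differed between genotypes for several named members, given here as 3xTg minus WT on the log2 scale. Among them were Rplp1 (1.12), Rps28 (1.09), Rps26 (0.80), Rpl37 (0.57), Rpsa (0.40) and Rpl7 (-0.29). Rpl36 (1.28), Rpl41 (0.73), Rplp2 (0.66), Rpl6 (0.40) and Rps16 (0.29) were called as well. With the GC trend removed no gene of all 16369 was called, and the differences were 0.72 for Rplp1, 1.16 for Rps28, 0.90 for Rps26, 0.41 for Rpl37, 0.40 for Rpsa and -0.08 for Rpl7.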

How the results depend on the processing

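Counts are of the 79 members called. Between genotypes with vehicle (32), 5 were called with VehD alone, 16 in a fit of only the libraries compared and 5 without the libraries of steep GC trend. Leaving out single libraries gave 7 to 46. For NAVI in 3xTg (0), the mean of both vehicles gave 25, a replicate block 34, GC trend removal with the block 12, DESeq2 32, leaving out the libraries of high thalamus score 35, and single libraries 0 to 42. For 3xTg against WT with NAVI (5), the block gave 16, GC trend removal with the block 11, DESeq2 9, and both only the libraries compared and leaving out steep GC trends 0, with 1 to 15 for single libraries. With DQ (1), the block and GC trend removal with the block gave 3 each, GC trend removal, GC and length trend removal and only the libraries compared 2 each, DESeq2 4, leaving out high thalamus scores 0, and single libraries 1 to 2. For the NAVI effect between genotypes (27), no low count filter, GC trend removal, GC and length trend removal, only the libraries compared and leaving out steep GC trends gave 0 each, GC trend removal with the block 20 (16 of them among the 27), high thalamus scores left out 43, and single libraries 0 to 44. The members' median moved beyond the spread between replicates in 3 cases: 0.054 for NAVI in 3xTg and 0.13 for its interaction without steep GC trends, and 0.17 for the DQ interaction without high thalamus scores. The cause was not tested. Fits of only the libraries compared and fits without single libraries had fewer samples. So had those without the 6 libraries of steep GC trend or the 8 of high thalamus score. The other 78 counts and 101 medians under these settings kept within the limits of 1.5 times and 1 SD, and none of the named differences changed direction. The replicate numbers were not taken as pairs. In no comparison did every same-numbered pair deviate together with a correlation over 0.1. In the vehicle comparison 10 of 24 checks found a library closest to its own number. Between VehN and VehD the correlation ran from -0.38 to 0.46, over 0.1 in 2 of 4 pairs, so the check does not settle whether numbers pair libraries. A replicate block gave 44 members between genotypes with vehicle and 39 for the NAVI effect between genotypes. Both sets of left-out libraries were chosen after seeing the data. At a mean of 0.78 CPM, Rpl30 has few counts, so its differences are uncertain.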
